A study of Mus musculus with 24 samples.

Results

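The 9 genes described here encode enzymes that make, acetylate and oxidise the polyamines, with the regulators closest to them: Arg2, Odc1, Azin1, Amd1, Srm, Sms, Sat1, Smox and Aoc1. They were found by their symbols among the 28450 features of a table of kidney RNA, each symbol matched 1 feature with an Ensembl ID, and all 9 passed the filter on low values. The list was built around Aoc1, which was chosen by its measured difference between Gly-treated knockout and Gly-treated wild-type kidneys. The mice were C57BL/6, either wild type or carrying the genotype that the labels spell NLPR3-/-, a knockout of the inflammasome sensor gene Nlrp3. Mice of both genotypes received glyoxylate (Gly), a precursor of oxalate that leads to calcium oxalate crystals in the kidney, or saline. Gly was given at 75 mg/kg per day and each injection, Gly or saline, was 200 µl into the peritoneum, from day 1 to day 7. Each of the 4 groups, saline wild type, Gly wild type, saline knockout and Gly knockout, had 6 libraries from whole kidney, 24 in all, and the labels used here give neither age nor sex.

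Polyamines are small, positively charged molecules that bind RNA and DNA and are needed for growth and protein synthesis. Putrescine is made from ornithine and is turned into spermidine and then spermine by adding aminopropyl groups that come from decarboxylated S-adenosylmethionine. In the opposite direction spermine and spermidine are acetylated for export or oxidised, and putrescine, like histamine, is a substrate of the copper amine oxidase encoded by Aoc1 (diamine oxidase). Oxidation of spermine by Smox and of diamines by Aoc1 releases hydrogen peroxide and reactive aldehydes. In rodent kidney the proximal tubule is the main site of ornithine decarboxylase, which is under androgen control in the mouse.

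Levels are given in FPKM, a count of fragments divided by the length of the transcript and by the size of the library, so they may be compared between genes. Sums of FPKM lay between 439749 and 539018 per library, and the sequencing depth behind them is unknown. Nlrp3 itself lay under the filter: its lowest, median and highest values were 0.361, 0.502 and 0.896 FPKM in Gly wild type and 0.119, 0.126 and 0.144 in Gly knockout, while under saline no library of either genotype exceeded 0.182 FPKM, too low to check the labels. All 10 proximal tubule markers and all 8 markers of other nephron segments were at 1 FPKM or more in every library. Saline knockout libraries 1, 2, 3, 5 and 6 held next to no Y-linked transcripts, with no value above 0.0503 FPKM, whereas Ddx3y lay between 5.14 and 12.9 FPKM in the other 19 libraries. Many results that use the saline knockout group are therefore also given without these 5 libraries. That leaves 1 library, number 4, whose spread has to be taken from the other groups. Values given once use all 6 saline knockout libraries, and their dependence on the 5 is not shown. Gly wild-type library 1 stood apart in its share of ribosomal protein FPKM, at 8.97% against 4.82 to 5.82% in the other 5 libraries of its group.

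RefSeq promoter windows (build GRCm38.p6, from 250 bases before to 50 after each annotated start) were found for 6 of the 9 genes: Aoc1, Odc1, Sat1, Amd1, Sms and Smox, with 8 windows in all. They were searched on both strands for the E-box bound by Myc and Max (CACGTG), the ATF4 element TGATGNAA, the AP-1 element TGANTCA and the antioxidant response element core TGACNNNGC, where N is any base. Of 32851 windows of the same length in the RefSeq table, 7.15% held the E-box, 3.97% the ATF4 element, 7.81% the AP-1 element and 12.4% the antioxidant core. The elements can overlap one another. The upstream bases of Aoc1, the gene with the largest change, and of Sms, the 1 gene of the set called lower under Gly in wild type at the settings used throughout, are shown 5′ to 3′ with matches in capitals. The first Aoc1 sequence (249 bases, chr6:48895005-48895253, plus strand) held no match. The second, upstream of another annotated start (250 bases, chr6:48904736-48904985, plus strand), held an AP-1 element 131 bases before that start. The Sms sequence (250 bases, chrX:157492288-157492537, minus strand) held an E-box 196 bases before the start.
Aoc1 start 1: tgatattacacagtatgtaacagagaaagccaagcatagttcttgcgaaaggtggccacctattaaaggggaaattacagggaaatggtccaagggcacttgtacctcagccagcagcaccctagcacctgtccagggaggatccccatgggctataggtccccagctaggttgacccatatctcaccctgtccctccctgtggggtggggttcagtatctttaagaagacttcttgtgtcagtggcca
Aoc1 start 2: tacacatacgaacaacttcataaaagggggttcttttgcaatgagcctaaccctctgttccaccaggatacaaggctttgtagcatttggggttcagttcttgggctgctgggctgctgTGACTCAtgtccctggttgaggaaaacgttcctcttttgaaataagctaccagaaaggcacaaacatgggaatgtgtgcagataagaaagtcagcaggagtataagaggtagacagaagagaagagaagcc
Sms start 1: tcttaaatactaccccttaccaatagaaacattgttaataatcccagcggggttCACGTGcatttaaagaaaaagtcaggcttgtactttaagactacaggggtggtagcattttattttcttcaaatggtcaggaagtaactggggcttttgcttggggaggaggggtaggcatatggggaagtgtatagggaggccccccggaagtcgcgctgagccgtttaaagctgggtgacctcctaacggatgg
The third match, in Smox, was to the antioxidant core, with the letters TGACAGTGC 193 bases before its start, in a stretch that the GENCODE annotation also covers with an exon. None of the 4 motifs was found in the Odc1, Sat1 and Amd1 windows or in the other Sms window. These matches describe letters only, and the coordinates are not those of mm8 or mm9, the builds that the submitters' processing notes name.

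In saline wild-type kidney the 9 genes spanned levels from about 1 to over 300 FPKM. Odc1 was the highest, at 306 ± 82.5 FPKM (mean ± SD, n = 6 libraries here and for every mean below), followed by Sat1 at 124 ± 5.24, Azin1 at 23.5 ± 2.04 and Amd1 at 13.6 ± 1.35. Sms (8.02 ± 0.344) and Srm (7.12 ± 0.700) overlapped in range, as did Arg2 (2.94 ± 1.43) and Smox (2.69 ± 0.384), and Aoc1 had the lowest mean at 1.27 ± 0.343, its highest library (1.66) just above the lowest of Arg2 (1.60). Under Gly in wild type the order changed. Odc1 (217 ± 31.4) and Sat1 (210 ± 53.8) now overlapped, and Aoc1 took the third place with 38.4 ± 13.4 FPKM, overlapping Amd1 (28.6 ± 3.17) and Azin1 (27.9 ± 8.32) below it. Arg2 (20.7 ± 3.02) overlapped its neighbours on both sides, Azin1 above and Srm (16.7 ± 3.14) below. Smox (7.70 ± 1.05) and Sms (6.19 ± 0.504) were the lowest and overlapped. In Gly knockout Aoc1 was sixth with 12.6 ± 4.10 FPKM, its range of 8.93 to 20.1 overlapping Amd1 above it (16.9 to 23.4) and Srm below it (8.55 to 11.8). Srm and Sms, which overlapped under saline, were apart in Gly wild type, with every Srm value at or above 12.5 FPKM and every Sms value at or below 7.14.

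**Figure D1:**
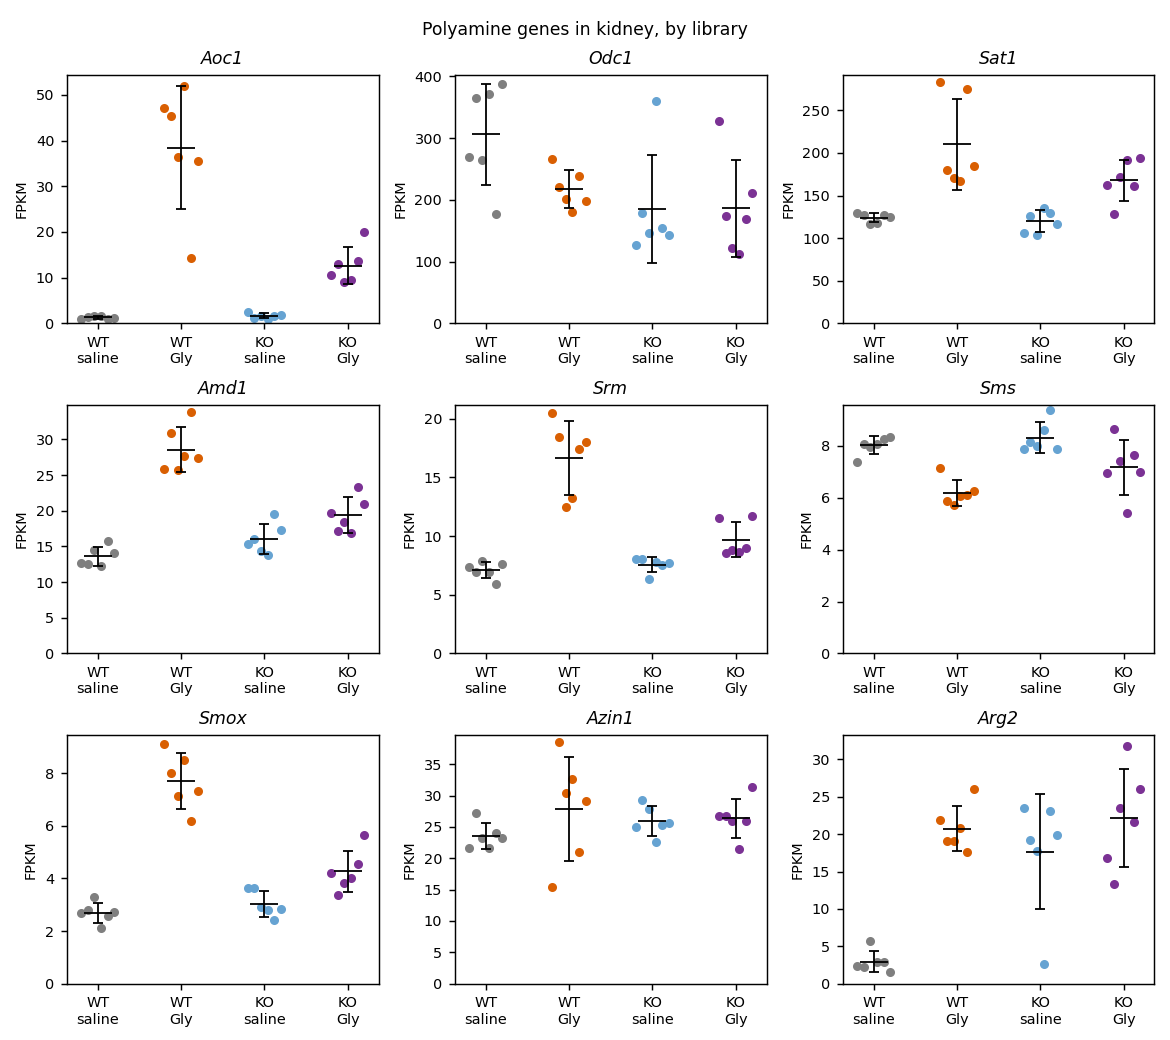
FPKM (linear axis from 0) of the 9 genes in each library; each point is 1 library, columns are saline wild type, Gly wild type, saline knockout and Gly knockout, and lines mark the mean ± SD of 6 libraries. Aoc1, Amd1, Srm and Smox are highest in Gly wild type with Gly knockout in between, whereas Arg2 is low only in saline wild type and in saline knockout library 4.

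Differences between groups were tested with limma on log2(FPKM + 1) over 13020 features, and a gene was called at a Benjamini-Hochberg adjusted p under 0.05 over all of them. Log2 differences below are on that scale, which understates the change of low genes, with the SE of the fit. Nothing in the labels says that samples of a group are separate animals, so the p-values weigh only the spread over samples, which may be technical. Gly against saline in wild type called 6 of the 9 genes higher (Aoc1, Arg2, Smox, Srm, Amd1 and Sat1), 1 lower (Sms) and 2 neither way (Odc1 and Azin1). Of all tested features 50.2% were called higher and 13.3% lower in the same comparison. Without further scaling, 6 of 9 higher is thus not far above the background. The median of the 9 log2 differences was 1.01 against 0.26 over all features. The same count in knockout was 5 higher and 0 lower, with 23.7% and 5.72% of all features called and medians of 0.31 and 0.12. More features were called higher than lower. A scaling that brings each library's median ratio to the others shifts these values down, and the all-feature median in wild type becomes -0.00. Mitochondrially encoded transcripts made up 26.9 to 34.3% of FPKM in saline wild type and 13.5 to 23.0% in Gly wild type. Gly wild-type library 1 gave the 13.5%, and the next lowest of that group was library 4 at 18.4%. In knockout the mitochondrial share was 28.6 to 32.7% under saline and 21.8 to 24.7% under Gly. The part of this share in the differences of other features was not tested. Wild-type calls of 6 higher and 1 lower were kept under median-ratio scaling, where Odc1 was called lower in addition. Over all 13020 features 3771 were then called higher and 3685 lower. The 2 Gly groups also entered the choice of Aoc1, so its response to Gly and its place in these counts are not independent of that choice.

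Ornithine, the starting material, comes from arginine through arginase, and Arg2 encodes the mitochondrial form. In saline wild type Arg2 had a lowest, median and highest value of 1.60, 2.60 and 5.71 FPKM, and in Gly wild type of 17.6, 19.9 and 26.1. The groups did not overlap, and the rise was 2.52 ± 0.33 log2 units (adjusted p = 4.28e-07, limma). In saline knockout, 5 libraries lay between 17.7 and 23.5 FPKM, inside or near the Gly wild-type range, while library 4 was at 2.66, inside the saline wild-type range. The 5 high libraries are the ones without Y-linked transcripts. With all 6 libraries Arg2 was higher in saline knockout than in saline wild type by 2.09 ± 0.33 (adjusted p = 0.000229), and without the 5 libraries the difference was -0.039 (adjusted p = 1.00). In Gly knockout Arg2 ran from 13.3 through a median of 22.6 to 31.8 FPKM. Against all 6 saline knockout libraries this was a log2 difference of 0.48 (adjusted p = 0.290), and against library 4 alone it was 2.61 ± 0.37 (adjusted p = 0.000513).

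Odc1 encodes ornithine decarboxylase, which makes putrescine. Its lowest, median and highest values were 177, 317 and 387 FPKM in saline wild type, 180, 211 and 266 in Gly wild type, 127, 150 and 359 in saline knockout, and 113, 171 and 328 in Gly knockout. All 4 groups overlapped. The wild-type difference under Gly was -0.45 ± 0.24 (adjusted p = 0.109), not past the threshold, but it passed with median-ratio scaling (-0.77, adjusted p = 0.0187), quantile normalization (-0.57, adjusted p = 0.0444) and library weights (-0.60, adjusted p = 0.0107), and when saline wild-type library 5 was left out (-0.60, adjusted p = 0.0349). Odc1 was lower in saline knockout than in saline wild type by -0.77 ± 0.24 (adjusted p = 0.0421). The value of 359 FPKM belongs to library 4, and the 5 libraries without Y-linked transcripts were all between 127 and 179. Without them the difference was 0.28 (adjusted p = 1.00), the opposite sign. The call with all libraries was also lost when any 1 of these 5, Gly knockout library 5 or any saline wild-type library except number 5 was left out (adjusted p from 0.0503 to 0.112). The Odc1 response to Gly in knockout was not called, with means of 185 ± 87.2 FPKM under saline and 186 ± 78.4 under Gly. With any 1 library left out this log2 difference lay between -0.16 and 0.23. Against saline knockout library 4 alone it was -1.04 ± 0.41. Genes known for higher levels in male mouse kidney were 6 in number (Slc7a13, Acsm3, Cyp7b1, Slco1a1, Cyp2j13 and Cyp4a12a). Their sums were 823 to 1089 FPKM in saline wild type, 231 to 296 in Gly wild type and 54.5 to 586 in Gly knockout. In saline knockout they were 4.75 to 6.69 in the 5 libraries without Y-linked transcripts and 762 in library 4. Another 4 genes, known for higher levels in female mouse kidney (Slc7a12, Slc22a29, Prlr and Akr1c18), were summed as well. These sums were 202 to 397 FPKM in the same 5 libraries and 21.2 in library 4. They were 11.0 to 19.2 in saline wild type, 19.2 to 83.2 in Gly wild type and 21.0 to 159 in Gly knockout. Gly knockout libraries, which all express Y-linked genes, were below saline wild type for Odc1 by -0.76 (adjusted p = 0.0143). The part of sex-dependent expression in the Odc1 values was not tested. Odc1 has processed pseudogenes in the mouse, and how the authors' counting treated reads shared with them is not given in the sources used here.

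**Figure D2:**
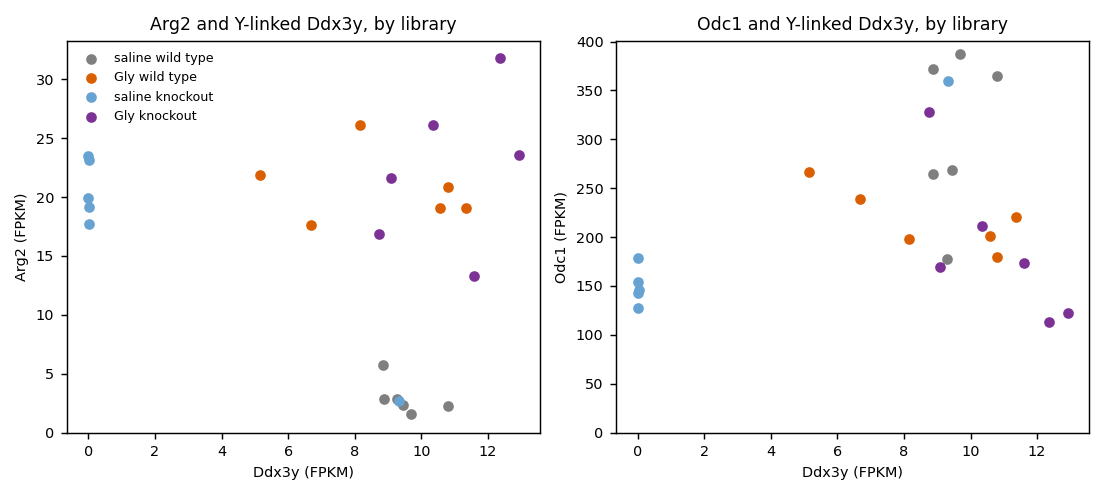
FPKM of Arg2 (left) and Odc1 (right) on the vertical axis against the Y-linked gene Ddx3y on the horizontal axis, both linear; each point is 1 of 24 libraries and colours mark the 4 groups. The 5 saline knockout libraries with Ddx3y near 0 are high for Arg2 (17.7 to 23.5) and low for Odc1 (127 to 179), and the sixth lies among the saline wild-type libraries for both.

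Azin1 encodes antizyme inhibitor, which frees ornithine decarboxylase from its inhibitor antizyme. Its group means were 23.5 ± 2.04 FPKM in saline wild type, 27.9 ± 8.32 in Gly wild type, 26.0 ± 2.34 in saline knockout and 26.4 ± 3.13 in Gly knockout, and no comparison called it. The Gly wild-type group was wide, from 15.4 through a median of 29.8 to 38.5, and library 1 gave the 15.4. The wild-type difference was 0.18 ± 0.14 (adjusted p = 0.269). Without library 1 it was 0.33 (adjusted p = 0.00950), with library weights 0.39 (adjusted p = 0.000246), and with median-ratio scaling -0.12, so its call and its sign depended on the setting.

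Amd1 encodes S-adenosylmethionine decarboxylase, which supplies the aminopropyl groups, and Srm and Sms encode spermidine and spermine synthase, which add the first and the second group. Amd1 had a lowest, median and highest value of 12.2, 13.4 and 15.7 FPKM in saline wild type and of 25.8, 27.5 and 33.8 in Gly wild type. Every Gly value was above every saline value, a 2.10-fold higher mean and a rise of 1.01 ± 0.09 (adjusted p = 1.40e-09). In knockout Amd1 went from 13.8, 15.7 and 19.5 under saline to 16.9, 19.1 and 23.4 under Gly, overlapping groups with a difference of 0.26 ± 0.09 (adjusted p = 0.0355). The near-identical gene Amd2 moved by 1.03 in wild type, and reads of the pair may be shared between them.

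Srm rose in wild type from 5.91, 7.16 and 7.91 FPKM to 12.5, 17.7 and 20.5, with a 2.34-fold higher mean and no overlap (1.11 ± 0.11, adjusted p = 3.70e-09). In knockout it went from 6.32, 7.77 and 8.05 to 8.55, 8.89 and 11.8, again without overlap, but by only 0.31 ± 0.11 (adjusted p = 0.0295). Sms moved the other way. It fell in wild type from 7.39, 8.07 and 8.35 to 5.71, 6.09 and 7.14 FPKM, with no overlap and a difference of -0.33 ± 0.08 (adjusted p = 0.000675). In knockout Sms was at 7.87, 8.07 and 9.38 under saline and at 5.41, 7.20 and 8.64 under Gly, a difference of -0.19 ± 0.08 that missed the threshold (adjusted p = 0.059). The Sms difference in knockout passed with median-ratio scaling (-0.33, adjusted p = 0.00903) and with quantile normalization (-0.34, adjusted p = 0.00873).

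Sat1 encodes spermidine/spermine acetyltransferase, the first step of export and back-conversion. In saline wild type it was tight, with a lowest, median and highest value of 117, 126 and 129 FPKM. In Gly wild type it was at 168, 182 and 283, without overlap, and libraries 1 and 5 (283 and 275) stood well above the other 4. The rise was 0.72 ± 0.12 (adjusted p = 1.93e-05). In knockout the values were 104, 122 and 136 under saline and 128, 167 and 194 under Gly, with 5 of 6 Gly libraries above every saline library and a rise of 0.48 ± 0.12 (adjusted p = 0.00495).

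Smox encodes spermine oxidase, which turns spermine back into spermidine. Its values were 2.10, 2.70 and 3.30 FPKM in saline wild type and 6.18, 7.66 and 9.10 in Gly wild type, a 2.86-fold higher mean without overlap (1.23 ± 0.10, adjusted p = 4.32e-10). In knockout they were 2.41, 2.88 and 3.64 under saline and 3.37, 4.11 and 5.65 under Gly, with 5 of 6 Gly libraries above every saline library (0.38 ± 0.10, adjusted p = 0.00767). Sat1, Smox, Amd1 and Srm were thus called higher under Gly in each genotype, but the knockout calls depended on the scaling. With median-ratio scaling the knockout differences of Sat1 (0.33, adjusted p = 0.151), Amd1 (0.12, adjusted p = 0.52) and Srm (0.18, adjusted p = 0.349) missed the threshold. With quantile normalization those of Amd1 (0.11, adjusted p = 0.449), Srm (0.17, adjusted p = 0.308) and Smox (0.23, adjusted p = 0.0745) missed it.

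Aoc1 (ENSMUSG00000029811) had the largest change of the set. In saline wild type its lowest, median and highest values were 0.854, 1.33 and 1.66 FPKM, and in Gly wild type 14.2, 40.9 and 51.9. The mean was 30.3-fold higher and the log2 difference 4.03 ± 0.23. The Gly groups entered the choice of Aoc1, so its responses to Gly are described here without p-values. Library 5 gave the 14.2 and the other 5 Gly wild-type libraries lay between 35.6 and 51.9. In knockout Aoc1 went from 0.988, 1.65 and 2.51 FPKM under saline to 8.93, 11.8 and 20.1 under Gly. This was a 7.70-fold higher mean without overlap (2.34 ± 0.23). Against saline knockout library 4 alone the difference was 2.73 ± 0.45. Aoc1 did not differ detectably between the genotypes under saline (0.21 ± 0.23, adjusted p = 0.621), where both groups were under 3 FPKM. With saline knockout library 4 alone this difference was -0.18.

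The knockout response to Gly rests on the saline knockout group, so the calls were repeated without its 5 libraries that lack Y-linked transcripts. Of the 9 genes, 2 were then called higher (Aoc1 and Arg2) and 0 lower, with 4.62% of all features called higher and 1.08% lower. Sat1 (0.29, adjusted p = 0.499), Amd1 (0.46, adjusted p = 0.1199), Srm (0.27, adjusted p = 0.476) and Smox (0.46, adjusted p = 0.176) were no longer called, with 1 saline knockout library left. Leaving out single libraries also ended the calls nearest the threshold. Srm was lost without saline knockout library 3, Gly knockout library 1 or Gly knockout library 6 (adjusted p = 0.0768, 0.0723 and 0.0857), and Amd1 without any of those 3, or without saline knockout library 1, 2 or 4 or Gly knockout library 5 (adjusted p from 0.0515 to 0.102 over these 7). Sms was called lower without Gly knockout library 2 (-0.24, adjusted p = 0.0182) or Gly wild-type library 1 (-0.19, adjusted p = 0.0353). Between the genotypes under saline, 1 of the 9 was called higher (Arg2) and 1 lower (Odc1), beside 6.92% and 3.67% of all features. Without the 5 libraries 0 of the 9 were called either way, and limma called 0% of all features higher and 0% lower, with 101 of 13020 at an unadjusted p under 0.05. In saline knockout, genotype and the absence of Y-linked transcripts cannot be told apart in those 5 libraries.

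Gly knockout was also set against saline wild type, a comparison in which all 12 libraries express Y-linked genes. It called 6 of the 9 higher (Aoc1, Arg2, Smox, Amd1, Sat1 and Srm) and 1 lower (Odc1), beside 38.9% and 6.72% of all features, with a median log2 difference of 0.43 against 0.20. This comparison shares its saline libraries with the wild-type response, so the values are set side by side. Aoc1 was at 2.55 in Gly knockout and 4.03 in Gly wild type relative to saline wild type, Smox at 0.51 and 1.23, Amd1 at 0.48 and 1.01, Srm at 0.39 and 1.11, and Sat1 at 0.43 and 0.72. Arg2 was at 2.57 and 2.52. The Gly knockout values of Sat1, Amd1 and Srm missed the threshold with median-ratio scaling (0.17, 0.24 and 0.16, adjusted p = 0.455, 0.121 and 0.352), and those of Srm and Smox with quantile normalization (0.16 and 0.24, adjusted p = 0.296 and 0.0527).

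The difference between Gly knockout and Gly wild type is the contrast on which Aoc1 was chosen, so for all 9 genes it is a description without a test. Aoc1 averaged 12.6 ± 4.10 FPKM in Gly knockout and 38.4 ± 13.4 in Gly wild type, which was 3.05-fold higher, a log2 difference of -1.48 ± 0.23. Falls were ranked among features averaging at least 5 FPKM in Gly wild type and called lower, with predicted-gene and accession-like names left out. In that order Aoc1 was number 10, between Timp1 (-1.52) just above it and Ccl12 (-1.48) and Gdf15 (-1.47) just below. The 2 groups overlapped through 2 libraries: Gly knockout library 6 (20.1) was above Gly wild-type library 5 (14.2), and the other 5 Gly knockout libraries were below every Gly wild-type library. Amd1 (19.4 ± 2.47 against 28.6 ± 3.17), Srm (9.71 ± 1.51 against 16.7 ± 3.14) and Smox (4.27 ± 0.784 against 7.70 ± 1.05) had all 6 Gly knockout libraries below all 6 Gly wild-type libraries, with log2 differences of -0.54 ± 0.09, -0.71 ± 0.11 and -0.73 ± 0.10. With a pseudocount of 5 in place of 1 the Smox difference was -0.45. The share of all features without overlap between these groups was not computed, so nothing is read from the 3 of 9. By the unlike measure of adjusted p, 21.4% of all features were called lower and 8.37% higher. Sat1 (-0.30 ± 0.12), Odc1 (-0.30 ± 0.24), Azin1 (-0.03 ± 0.14), Arg2 (0.05 ± 0.33) and Sms (0.18 ± 0.08) overlapped between the groups.

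**Figure D3:**
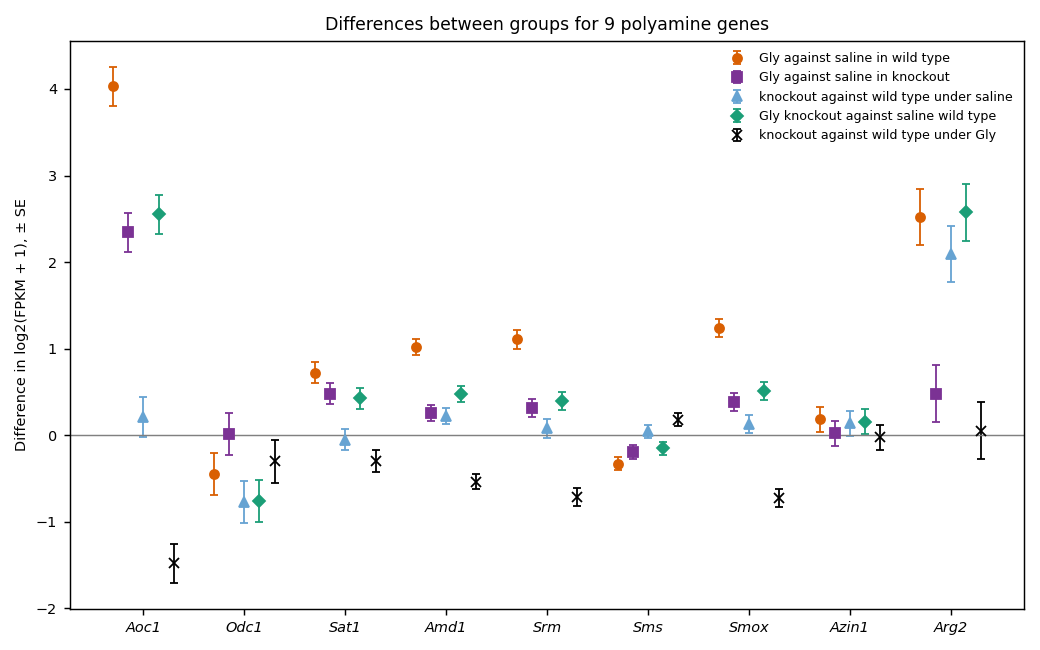
Difference in log2(FPKM + 1) between groups for each of the 9 genes on a linear axis; symbols mark the 5 comparisons and bars are ± 1 SE of the limma fit over 24 libraries. Aoc1 reaches 4.03 in wild type and 2.34 in knockout, Sms lies below 0 in both, and Arg2 lies near 2.5 in both comparisons with saline wild type that involve Gly and near 0 between the Gly groups.

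Marker genes of other cells moved in the same libraries. The summed level of 8 macrophage markers was 32.4 to 54.2 FPKM in saline wild type, 240 to 703 in Gly wild type, 35.0 to 67.8 in saline knockout and 130 to 394 in Gly knockout, and no marker was at 0. For 6 markers of injured tubule the sums were 109 to 190, 1118 to 1748, 136 to 235 and 496 to 969, and for 10 proximal tubule markers 2629 to 3469, 1305 to 1824, 2488 to 3568 and 2274 to 3129 FPKM, in the same order. Gly wild-type library 5, the lowest of its group for Aoc1 and Smox, also had the lowest macrophage sum (240). The same library was the highest of its group for Amd1 (33.8) and second for Sat1 (275) and Odc1 (239). Gly knockout library 6, the highest of its group for Aoc1, Srm, Sat1, Smox and Azin1, had the highest macrophage (394) and injured tubule (969) sums. Library 4 of that group had the next highest macrophage sum (284), but Aoc1 at only 9.48 FPKM and the lowest Amd1 (16.9). Library 1 had the next highest injured tubule sum (869), with Aoc1 at 10.7. In whole kidney, more or fewer cells of a type and more or less RNA per cell cannot be told apart, and the part of cell composition in the polyamine genes was not tested. The 8 adrenal and pancreas markers summed to 34.7 to 85.3 FPKM over the 24 libraries, nearly all of it Cela1 (33.8 to 84.6), with Star between 0.347 and 1.25. Of the others, Cyp11b2, Pnlip, Prss2 and Cpa1 were at 0 in every library, and Cyp11b1 and Cyp21a1 were at 0 under saline and at most 0.0136 and 0.104 FPKM under Gly.

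Genes with the pattern most like that of Aoc1 over the 24 libraries were named by Pearson r of log2(FPKM + 1). They were Cnn2 (calponin, r = 0.989), Tpm1 (tropomyosin, 0.989), Tubb5 (tubulin, 0.988), Dcdc2a (0.988), the adhesion molecule gene Vcam1 (0.987) and Ms4a6d (0.985). Within groups, after taking out the group means, r with Aoc1 was still between 0.757 and 0.855 for these 6. Cnn2, for example, averaged 3.89 FPKM in saline wild type, 21.7 in Gly wild type, 5.14 in saline knockout and 12.3 in Gly knockout. For Odc1 the 6 most alike were the dipeptidase genes Pepd (0.894) and Cndp2 (0.881), Ppt2 (0.885), Lactb (0.879), Degs2 (0.875) and Nat8f2 (0.874), with r within groups of 0.831 to 0.906. The r within groups for Odc1 includes a gap inside saline knockout. There Odc1 was at 359 FPKM in library 4 and at 127 to 179 in the 5 libraries without Y-linked transcripts. An r without those 5 libraries was not computed. Cndp2 averaged 439 FPKM in saline wild type and 148 in saline knockout. All these values come from the same 24 libraries and describe likeness only.

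Another 60 genes around the pathway were read as 7 lists, and 55 of them passed the filter (Oaz3, Satl1, Otc, Slc22a3 and Aoc2 did not). Under Gly in wild type 20 of the 55 were called higher and 18 lower, with a median of 0.14 against 0.26 over all features. In knockout 9 were higher and 6 lower (median 0.03), between the genotypes under saline 6 and 5 (0.12), in Gly knockout against saline wild type 16 and 8 (0.18), and in Gly knockout against Gly wild type 11 and 9 (0.05). The shares of all features called are those given above for each comparison. With median-ratio scaling the splits became 13 and 23 in wild type and 5 and 13 in knockout. They were 10 and 18 for Gly knockout against saline wild type, and 13 and 6 between the Gly groups. Over all 13020 features that scaling called 3771 higher and 3685 lower in wild type, and 1608 and 1549 in knockout. For Gly knockout against saline wild type it called 2145 and 2176, and between the Gly groups 1693 and 2001. The balance of higher and lower calls thus depends on the scaling. Without the 5 saline knockout libraries that lack Y-linked transcripts, the knockout response had 3 higher and 2 lower and the genotype difference under saline 0.

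**Figure D4:**
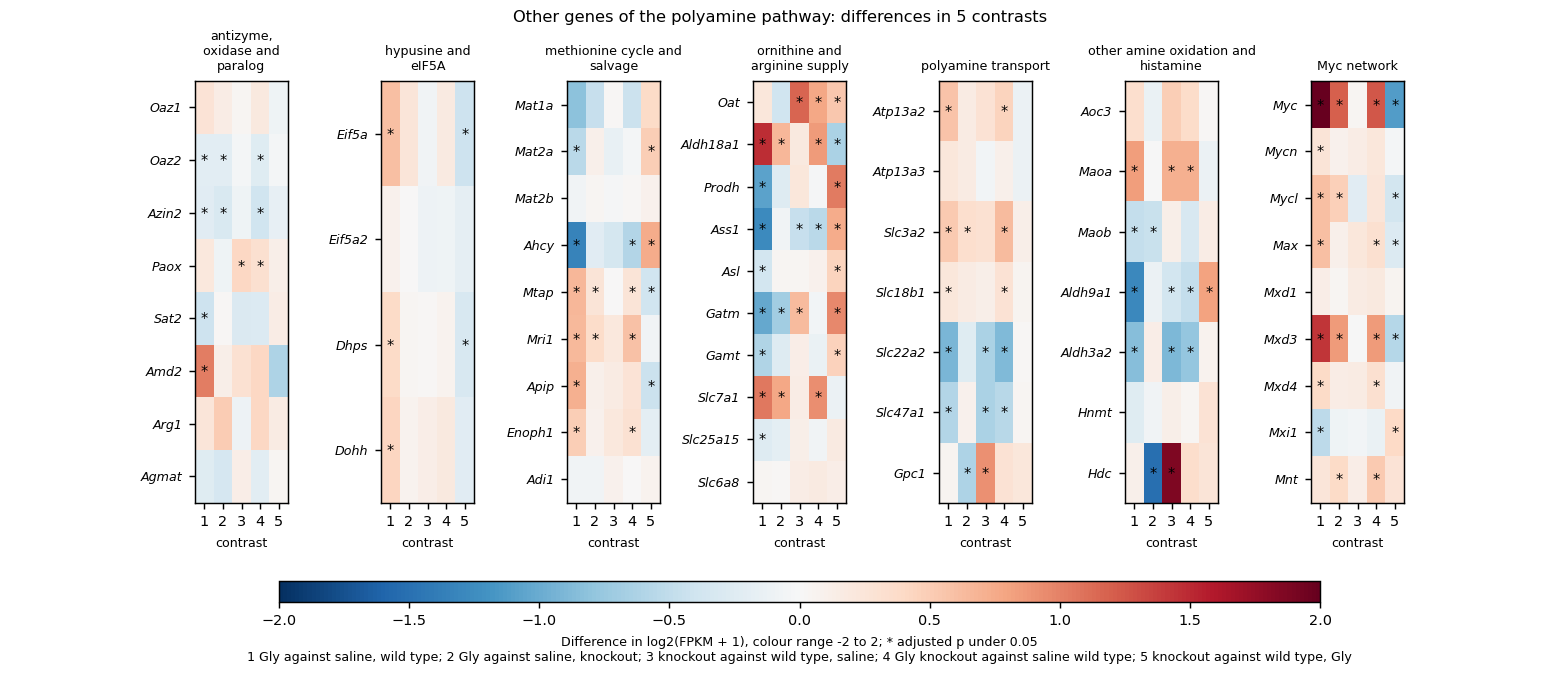
Difference in log2(FPKM + 1) for 54 of the 55 tested genes of 7 pathway lists; colour runs from -2 (blue) to 2 (red), each row is a gene, columns 1 and 2 show the response to Gly in wild type and in knockout, columns 3 and 5 the knockout relative to wild type under saline and under Gly, column 4 Gly knockout relative to saline wild type, and a star marks an adjusted p under 0.05. Column 1 holds the most stars of the 5, with Myc (2.36), Aldh18a1 (1.48) and Mxd3 (1.43) the largest rises.

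Myc and its partners act on several polyamine genes, Odc1 being a known Myc target. Under Gly in wild type 6 of the 9 genes of that network were called higher and 1 lower, beside 50.2% and 13.3% of all features. The same shares stand beside the wild-type counts of the lists below, and 23.7% and 5.72% beside a knockout count. The lists are short, and nothing is read from their counts. Myc had a mean of 3.72 ± 1.10 FPKM in saline wild type, 22.7 ± 2.41 in Gly wild type, 3.82 ± 0.942 in saline knockout and 10.1 ± 2.33 in Gly knockout. It rose by 2.36 ± 0.16 in wild type (adjusted p = 9.74e-12) and by 1.19 ± 0.16 in knockout (adjusted p = 4.53e-06), and Gly knockout was below Gly wild type by -1.12 ± 0.16 (adjusted p = 2.12e-05), with no overlap between the 19.1 FPKM at the bottom of the one and the 12.7 at the top of the other. Mxd3, a repressor of the network, rose by 1.43 in wild type and 0.86 in knockout (0.67, adjusted p = 0.224, against saline knockout library 4 alone), and Max, the partner of both, by 0.61 in wild type. In knockout Max was not called (0.10, adjusted p = 0.372), nor was it against saline knockout library 4 alone (0.42, adjusted p = 0.0806).

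Ornithine and arginine supply moved in both directions, with 2 of 10 tested genes higher and 6 lower in wild type. Aldh18a1, which starts ornithine and proline synthesis from glutamate, rose from 0.659 ± 0.109 to 3.67 ± 0.627 FPKM in wild type (1.48 ± 0.12, adjusted p = 1.01e-10) and from 0.924 ± 0.326 to 2.02 ± 0.460 in knockout (0.66, adjusted p = 0.000126). The arginine transporter gene Slc7a1 rose by 1.05 and 0.78. Ass1, argininosuccinate synthase, fell from 1173 ± 135 to 484 ± 54.7 FPKM in wild type (-1.27 ± 0.13, adjusted p = 5.51e-09) and was at 815 ± 128 in Gly knockout, higher than in Gly wild type by 0.74 (adjusted p = 0.000152). Between the Gly groups 6 genes of this list were called higher in knockout and 1 lower, beside 8.37% and 21.4% of all features. Proximal tubule markers were lower in Gly wild type than in Gly knockout, as given above, and the part of cell composition in these differences was not tested.

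The methionine cycle and salvage genes, which provide S-adenosylmethionine and recycle the methylthioadenosine left by Srm and Sms, were split as well, with 4 of 9 higher and 2 lower in wild type. The salvage genes Mtap (0.66 ± 0.07, adjusted p = 7.17e-09) and Apip (0.71 ± 0.12, adjusted p = 1.14e-05) rose. Ahcy, which hydrolyses S-adenosylhomocysteine, fell from 185 ± 15.7 to 72.4 ± 8.22 FPKM (-1.34 ± 0.12, adjusted p = 1.56e-09). Under Gly, knockout was below wild type for Mtap (-0.40, adjusted p = 0.000129) and Apip (-0.44, adjusted p = 0.0065) and above it for Ahcy (0.75, adjusted p = 0.000103).

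Spermidine is the donor for hypusine, the modified amino acid of the translation factor eIF5A. Under Gly in wild type 3 of 4 tested genes of this list were called higher: Eif5a itself (0.59, adjusted p = 2.62e-05) and the modifying enzymes Dhps (0.39, adjusted p = 0.000854) and Dohh (0.42, adjusted p = 0.00137). None of these 3 calls held with median-ratio scaling, where the differences were 0.28, 0.10 and 0.12 (adjusted p = 0.0916, 0.416 and 0.426). In knockout 0 of the 4 were called in either direction with limma, at 0.24, 0.04 and 0.07 for the same genes (adjusted p = 0.0848, 0.788 and 0.658).

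Among antizyme, oxidase and paralog genes 1 of 8 tested was higher and 3 lower in wild type. Azin2 and Oaz2, the second antizyme inhibitor and an antizyme, were both called lower under Gly in each genotype, by -0.23 and -0.31 for Azin2 and by -0.21 and -0.20 for Oaz2. Both knockout calls were lost without the 5 libraries lacking Y-linked transcripts (-0.35 and -0.33, adjusted p = 0.306 and 0.203). Paox, the peroxisomal oxidase of acetylated polyamines, was not called in wild type (0.20, adjusted p = 0.131) and was higher in saline knockout than in saline wild type by 0.41 (adjusted p = 0.0249), a difference of 0.21 without the 5 libraries lacking Y-linked transcripts (adjusted p = 1.00). Of polyamine transport genes 3 of 8 were higher and 3 lower in wild type. Slc3a2, the heavy chain of amino acid exchangers linked to polyamine export, rose by 0.52 and 0.33 in wild type and knockout, but by 0.21 and 0.18 with median-ratio scaling, past the threshold in neither (adjusted p = 0.171 and 0.339). Gpc1, a heparan sulfate proteoglycan, was called in knockout (-0.62) and between the genotypes under saline (0.91), but at 0.19 and 0.10 without the 5 libraries it was not.

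The aldehyde made by Aoc1 from putrescine is passed on by aldehyde dehydrogenases, Aldh9a1 among them. Aldh9a1 fell in wild type from 175 ± 11.9 to 71.7 ± 8.15 FPKM (-1.28 ± 0.11, adjusted p = 2.64e-10) while Aoc1 rose in the same libraries. In Gly knockout Aldh9a1 was at 126 ± 17.5, higher than in Gly wild type by 0.80 ± 0.11 (adjusted p = 1.09e-05), with no overlap between 102 at its lowest and 86.0 at the highest of the wild type. Of the list of other amine oxidation and histamine genes 1 of 7 was higher and 3 lower in wild type: Maoa rose by 0.83 (adjusted p = 4.1e-06) and Aldh3a2 fell by 0.85 (adjusted p = 1.54e-05). Maoa and Aldh3a2 also differed between the genotypes under saline (0.71 and -0.90, adjusted p = 0.000761 and 0.000252), and without the 5 libraries lacking Y-linked transcripts these differences were 0.15 and -0.07 (adjusted p = 1.00 for both).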

How the data were processed

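Kidney RNA of 24 samples was sequenced from libraries made with the TruSeq kit, per the labels' protocols. The authors deposited FPKM, 1 column for each sample. Bowtie 0.12.2 and the builds mm8 and mm9 are named in the submitters' processing notes without a role. How FPKM were computed, with which annotation and with or without strand, is not given in the sources used here. FPKM hold no read counts. Low features (mean under 0.05 FPKM) were examined for steps of whole reads, but no log2 ratio between a pair of libraries, to within 0.01, held more than 2.11% of them, and reads were not recovered.

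Groups came from the sample titles. limma 3.58.1 in R 4.3.3, with an intensity trend, was fitted to log2(FPKM + 1) of the 13020 of 28450 features that reached 1 FPKM in 6 or more libraries, with a mean per group, all 24 libraries in 1 fit and two-sided p-values. No 2 libraries held identical values, and correlations between libraries ran from 0.866 to 0.993. The test was tried on simulated data. The 9 genes, the pathway and marker lists and the tests were chosen with earlier results of these data known. All 9 genes are named. Of each pathway list, up to 3 genes with the smallest p over the 5 comparisons are named, with genes under the filter as a count, and 1 gene of these lists enters the counts but is not reported here. For Aoc1 and Odc1 the 6 most alike genes are named. Alternatives were 2 other pseudocounts, filters, scalings, library weights, the groups compared alone, a replicate block, leaving out each library and leaving out the 5 saline knockout libraries that lack Y-linked transcripts. Promoter windows were read from a RefSeq table, printed only where no annotated exon covers them.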

Additional observations from a re-analysis of the deposited data

Results flagged for a closer look

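Among the 9 genes and the 20 named pathway genes, 116 groups of 6 libraries were examined for a library whose gap to its nearest neighbour takes up an unusual share of the group's range. Such a gap was found in 15. For independent, normally distributed values chance alone gives about 1 in 20 groups. These genes share the same libraries and 20 were named for small p, so the 15 are not weighed against that rate. Of the 15 gaps, 6 concern saline knockout library 4, the 1 saline knockout library with Y-linked transcripts. Odc1 (359 FPKM), Ass1 (1246), Aldh9a1 (191) and Aldh3a2 (83.8) were highest there, and Arg2 (2.66) and Maoa (2.65) lowest. In Gly wild-type library 1, which also stood apart in ribosomal protein FPKM, Oaz2 (58.4), Dhps (14.0), Dohh (44.8) and Apip (26.8) were highest. The other 5 were Srm (6.32) and Slc3a2 (97.5) in saline knockout library 3, Arg2 (5.71) in saline wild-type library 3, Paox (2.13) in saline wild-type library 5 and Myc (5.61) in saline knockout library 1.

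The response to Gly differed between the genotypes for 11 of the 20 named pathway genes, by the interaction term of the limma fit (knockout response minus wild-type response, adjusted p over all features). The same term was called for 26.6% of all tested features, 6.28% above 0 and 20.3% below, and the 20 genes were named for small p in the comparisons that make up this term, so nothing is read from the count. It was above 0 for Ass1 (1.21, adjusted p = 7.32e-05), Aldh9a1 (1.16, adjusted p = 1.96e-05), Ahcy (1.11, adjusted p = 0.000119) and Aldh3a2 (0.98, adjusted p = 0.00115). It was below 0 for Myc (-1.17, adjusted p = 0.000666), Aldh18a1 (-0.83, adjusted p = 0.000785), Maoa (-0.83, adjusted p = 0.00162), Gpc1 (-0.68, adjusted p = 0.0314), Apip (-0.61, adjusted p = 0.00903), Max (-0.51, adjusted p = 0.00196) and Mtap (-0.40, adjusted p = 0.00342). Without the 5 saline knockout libraries that lack Y-linked transcripts none of these 11 passed the threshold, the smallest adjusted p being 0.189 (10 of 13020 features were called), and their values were 0.65, 0.67, 0.85, 0.14, -0.89, -0.57, -0.28, 0.13, -0.49, -0.19 and -0.24 in the same order. Of these 11, only Gpc1 changed sign. With median-ratio scaling Mtap (-0.24, adjusted p = 0.119) and Apip (-0.45, adjusted p = 0.0757) missed the threshold, and with quantile normalization Mtap did (-0.23, adjusted p = 0.0787). The interaction was not tested for the 9 genes themselves, since Aoc1 was chosen on part of it.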

How the results depend on the processing

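In the wild-type comparison and in Gly knockout against saline wild type, the count of 7 called genes of the 9 became at most 8 and at least 7 with any 1 library left out. In the knockout response the count of 5 became 3 without the filter, 3 with median-ratio scaling, 3 with quantile normalization and 2 without the 5 saline knockout libraries lacking Y-linked transcripts. The filter's removal lost Amd1 and Srm. Under either scaling 2 of the 5 higher calls remained, Aoc1 and Smox with median ratios and Aoc1 and Sat1 with quantiles, and Sms was called lower in addition. With 1 library left out the count lay between 3 and 6, and it was 3 without saline knockout library 3, Gly knockout library 1 or Gly knockout library 6. Between the genotypes under saline the count of 2 was 1 without the filter, 0 without those 5 libraries, where Odc1 was at 0.28 and Arg2 at -0.039, and 1 to 2 with 1 library left out. It was 1 without saline knockout library 1, 2, 3, 5 or 6, Gly knockout library 5, or saline wild-type library 1, 2, 3, 4 or 6.

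For the other pathway genes, the count of 15 in the knockout response was 7 with a filter of 5 FPKM and 5 without the 5 libraries, and the count of 11 between the genotypes under saline was 7, 0 and, with library weights, 23. With 1 library left out, pathway counts ran from 33 to 42 in wild type, 12 to 19 in knockout, 7 to 14 between the genotypes under saline (7 without saline knockout library 2, 3, 5 or 6 or saline wild-type library 1), 24 to 29 for Gly knockout against saline wild type and 17 to 23 between the Gly groups. Fewer genes pass the stricter filter, and 1 saline knockout library is left without the 5. The cause of the other shifts was not tested.

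Replicate numbers were shared by the titles, and 7 of 36 same-numbered pairs had a correlation of deviations over 0.1 (range -0.369 to 0.303). Pairs with different numbers were not compared, so these values cannot decide whether same-numbered libraries share more than a number. With the replicate block the counts of the 9 genes stayed at 7, 5, 2 and 7, though under saline Amd1 (adjusted p = 0.0465) took the place of Odc1 (adjusted p = 0.0611), and the pathway counts were 37, 14, 10, 24 and 20. Low genes such as Aoc1 under saline, and the depth being unknown, limit how small a difference can be seen.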
